A study of Mus musculus with 10 samples.

Results

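The keratins of interfollicular epidermis were followed in whole skin that lacked STAT3 in keratinocytes. They were Krt5 and Krt14 of the basal layer and Krt1, Krt10, Krt2, Krt77, Krt78 and Krt80 of the suprabasal layers. These 8 genes were taken by symbol from tables of 23282 entries, which hold 52 keratin symbols, and all 8 were found. The skin came from C57BL/6 mice at 5 months of age. The STAT3cKO group has 5 libraries, of skin whose keratinocytes had STAT3 ablated, and the WT group has 5, of wild-type skin. The sources used here give neither the promoter that drives the deletion nor the deleted exons, the sex, the body site, the hair cycle stage or the alleles of the WT mice. Whether libraries of a group stem from different mice is not said in the labels, so p-values cover only the spread among the libraries, which may be technical in part. STAT3 carries signals of cytokine receptors to the nucleus, where it acts on transcription.

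Keratins build the intermediate filaments of epithelial cells, and each filament unit pairs a type I with a type II keratin. Dividing basal keratinocytes make Krt5 (type II) with Krt14 (type I). When a cell leaves the basal layer it turns to Krt1 (type II) with Krt10 (type I), and Krt2, Krt77, Krt78 and Krt80 are further type II keratins of differentiating epithelium. A change in the level of the Krt1 and Krt10 pair against the Krt5 and Krt14 pair is commonly read as a shift between the layers.

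The libraries were sequenced from the 3′ ends of transcripts, so levels of different genes were set side by side without division by length. Other differences between genes in how their reads are gained and counted were not corrected here. The deposited values are on a log2 scale, and the depth was estimated at between 7190000 and 16600000 reads for WT libraries and between 7520000 and 18700000 for those of STAT3cKO. STAT3cKO 2 and WT 3 had the most tested genes without a read, 2617 and 1273 of 11536. STAT3cKO 2 also stood apart in Xist, which coats an inactivated X, with a value of 0.064 against 8.65 to 11.01 in the other 9 libraries. Its Ddx3y, a Y chromosome gene, was at 10.62 against at most 1.26 in the others. By these values STAT3cKO 2 reads as male and the other 9 libraries as female, so the STAT3cKO group is mixed in sex. Stat3 itself was at 9.72 ± 0.56 in WT and 10.13 ± 0.48 in STAT3cKO (SD, n = 5 each), a change of 0.41 (limma adjusted p = 0.700), with library values from 9.08 to 10.81. Deletions can leave 3′ ends in place and other skin cells keep the gene, so 3′ reads of whole skin do not check an ablation in keratinocytes. Markers of keratinocytes were present in every library. Their 12-gene list had summed levels (log2 of the summed linear values) of 15.3 to 16.3 in WT and 16.2 to 17.3 in STAT3cKO. Each of the 12 genes had a higher mean in STAT3cKO than in WT (median change 0.90), though 0 were called. Krt5, Krt14, Krt1 and Krt10 are in that list, so its levels are not independent of the members. The 14 adipocyte markers had summed levels of 17.0 to 19.5 in WT and 15.64 to 18.08 in STAT3cKO, with a negative change for 14 of 14, and 1 gene, Car3, fell (limma adjusted p = 0.0209). The 14 hair matrix and shaft markers spanned 8.59 to 18.5 in WT, with WT 4 the highest, and 7.95 to 18.7 in STAT3cKO, with STAT3cKO 3 the highest. The 14 skeletal muscle markers spanned 15.1 to 19.1 in WT and 13.3 to 18.2 in STAT3cKO, with a negative change for 13 of 14 and 0 called. Of 12 fibroblast markers 1 fell (Dpt), with 4 positive and 8 negative changes. Of 9 tested sebocyte markers 2 rose (Soat1 and Elovl3), with 6 positive and 3 negative changes. The part of these other cell types in the keratin values was not tested beyond the covariate fits given with Krt1 and Krt10. In whole skin, fewer cells of a type and less RNA per cell cannot be told apart.

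The members lie in the keratin gene clusters, type I on chromosome 11 and type II on chromosome 15 of mm10, all on the minus strand. The start regions of Krt5 and Krt10 are shown because these were the most abundant basal and suprabasal members. They run from 250 bases before to 50 bases after the RefSeq start (build GRCm38.p6), at chr15:101712856-101713155 for Krt5 and chr11:99389315-99389614 for Krt10, both read on the minus strand. Capitals mark matches to TATAAA and to CACCC, the core letters of a Krüppel-like factor site, on either strand (GGGTG is CACCC on the other strand).
Krt5: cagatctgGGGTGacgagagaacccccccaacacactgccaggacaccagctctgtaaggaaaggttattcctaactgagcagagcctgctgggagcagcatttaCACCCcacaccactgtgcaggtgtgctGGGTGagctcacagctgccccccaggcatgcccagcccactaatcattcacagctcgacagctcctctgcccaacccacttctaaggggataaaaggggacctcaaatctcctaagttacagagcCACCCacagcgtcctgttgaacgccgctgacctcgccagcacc
Krt10: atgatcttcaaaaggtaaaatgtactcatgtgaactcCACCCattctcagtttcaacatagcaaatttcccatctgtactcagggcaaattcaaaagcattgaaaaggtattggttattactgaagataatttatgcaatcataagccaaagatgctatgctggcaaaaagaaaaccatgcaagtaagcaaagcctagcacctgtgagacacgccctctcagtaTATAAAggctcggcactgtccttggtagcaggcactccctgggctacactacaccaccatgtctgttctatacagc
Krt10 held TATAAA 26 bases before its start, a match found in 13.6% of the 32851 RefSeq start regions of this length. CACCC was found in the regions of Krt5, Krt14, Krt10 and Krt2, and in 57.5% of all; the RefSeq start used for Krt14 lies inside its annotated gene span, so its window is not a start region of the whole gene. The letters TGANTCA (AP-1) and TTCNNNGAA (STAT), searched on both strands, were in the windows of 0 of the 6 members with an entry, and in 7.81% and 8.30% of all regions. GCCNNNGGC (AP-2) was likewise in 0 of the 6, and in 16.6% of all. A match or its absence describes these letters in this window only.

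The comparison of STAT3cKO with WT tests whether loss of STAT3 in keratinocytes goes with other keratin levels in the skin. By limma, 0 of the 7 tested members were called higher and 0 lower (Benjamini-Hochberg adjusted p under 0.05). Of all 11536 tested genes 0.529% were called higher and 0.459% lower, 0.988% in all. In 0 of the 7 members were the groups free of overlap, against 1.71% of all tested genes with every STAT3cKO library higher and 1.72% with every one lower. Of the 7 tested members 6 had a positive change, with a median of 1.30, against a median of −0.16 over all tested genes, of which 43.8% were positive. In order of unadjusted limma p, Krt1, Krt10, Krt2 and Krt14 held places 126, 230, 356 and 516 of the 11536 tested genes. Krt5, Krt78 and Krt77 held places 2598, 4249 and 8841. Krt2, among the 6 with a positive change, passed the filter on low values mainly through the STAT3cKO libraries. Krt80 was left out of the test by that filter. Krt1, the type II partner of Krt10, came closest, 10.9-fold higher in the group means but with an adjusted p of 0.0540.

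Among the basal keratins, Krt5 (chromosome 15, 101707070 to 101712898) had values of 12.42, 11.85, 13.00, 13.73 and 13.25 across WT 1 to 5 and 14.40, 12.58, 13.98, 12.90 and 13.46 across STAT3cKO 1 to 5. The groups overlapped over most of their range. The change was 0.62 with a 95% interval of −0.20 to 1.43 (SE 0.39, limma adjusted p = 0.577). Krt14 (chromosome 11, 100203162 to 100207548) had values of 11.67, 10.82, 11.60, 13.06 and 13.01 in WT and 14.16, 12.62, 13.40, 12.61 and 13.88 in STAT3cKO. WT 4 and WT 5 lay within the STAT3cKO range and the other 3 WT libraries below it. Its change was 1.30 (SE 0.45, 95% interval 0.35 to 2.26, unadjusted p = 0.0112, limma adjusted p = 0.250). Of the 50-base words in the last 400 bases of its transcript, 6.27% also stand in Krt16 or Krt17, so a small part of its reads could belong to those keratins; for the other 7 members no such word was shared with another gene.

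Krt1 (chromosome 15, 101845426 to 101850794) had values of 9.12, 9.54, 8.80, 7.91 and 11.13 across WT 1 to 5 and 13.41, 10.94, 11.82, 13.02 and 14.50 across STAT3cKO 1 to 5. Every STAT3cKO value was higher than every WT value with 1 exception, WT 5, which exceeded STAT3cKO 2. The change was 3.44 (SE 0.72, 95% interval 1.85 to 5.03), from 9.30 ± 1.19 in WT to 12.74 ± 1.39 in STAT3cKO (SD, n = 5 each). Of all tested genes 1.09% had a change at least as high. Krt1 had an estimated 202 to 1493 reads per library in WT and 1410 to 41572 in STAT3cKO.

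**Figure D1:**
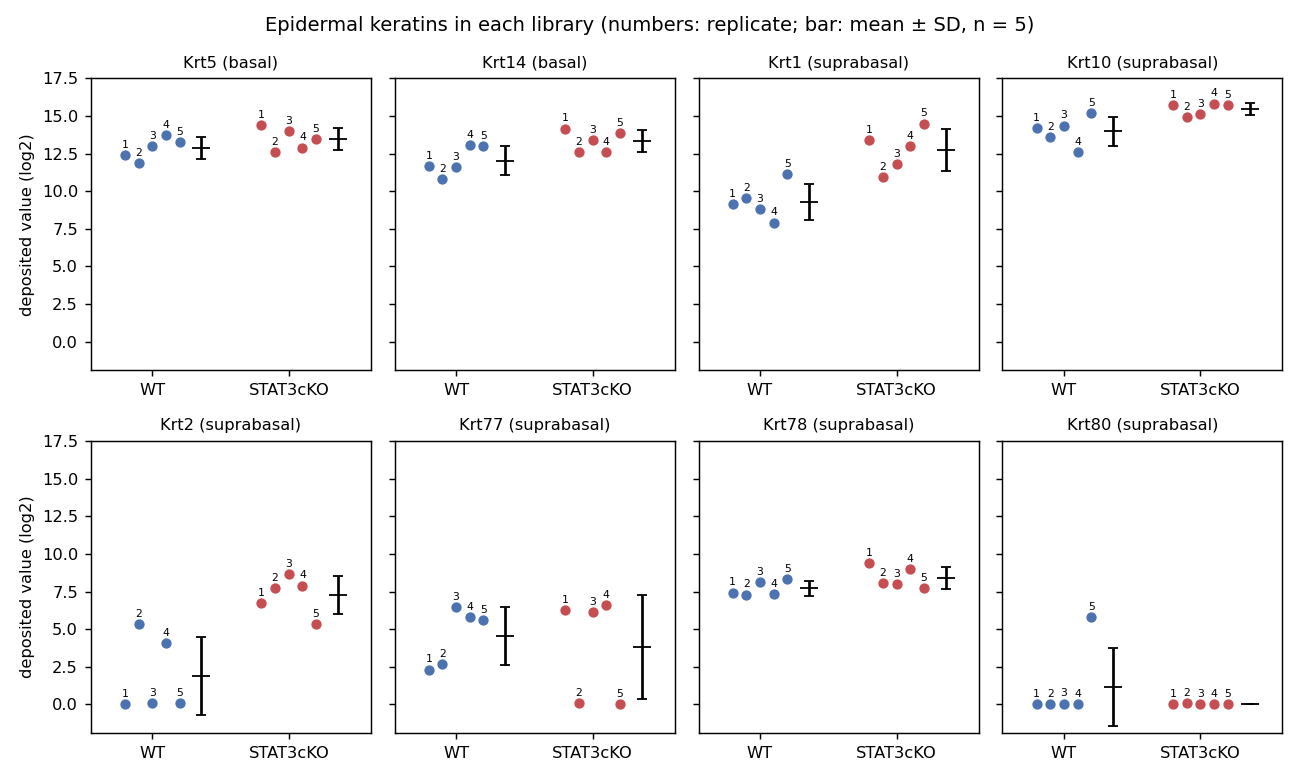
Deposited log2 values of the 8 keratins in each library (points, numbered by replicate), with the mean and SD of each group of 5 as a bar to the right. Krt1 had 1 WT library, WT 5 at 11.13, above the lowest STAT3cKO library at 10.94, and Krt80 was above 0.06 in WT 5 alone.

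Krt10 (chromosome 11, 99385254 to 99389364), the type I keratin of the suprabasal layers, was the most abundant member in both groups, except in WT 4, where Krt5 and Krt14 were higher. Its values were 14.22, 13.60, 14.36, 12.60 and 15.17 across WT 1 to 5 and 15.72, 14.91, 15.14, 15.83 and 15.72 across STAT3cKO 1 to 5. WT 5 lay among the STAT3cKO libraries and the other 4 WT libraries below all of them. The change was 1.48 (SE 0.39, 95% interval 0.64 to 2.31, unadjusted p = 0.00200, limma adjusted p = 0.10), a 2.78-fold difference of the group means. An antisense gene shares exon bases with Krt10, and a miRNA gene on the other strand with Krt5. Use of strand in counting is not stated, so their reads may not be separable.

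Krt2 (chromosome 15, 101810689 to 101818169), a keratin of the upper suprabasal layers, had no read in WT 1, WT 3 and WT 5, about 51 reads in WT 2 and 13 in WT 4. In STAT3cKO it had a read in 5 of 5 libraries, with 69 to 371 reads. Its values were 5.36 and 4.05 in WT 2 and WT 4 and 6.74, 7.72, 8.65, 7.89 and 5.31 across STAT3cKO 1 to 5, so that WT 2 and STAT3cKO 5 lay side by side. The change was 5.35 with a 95% interval of 1.82 to 8.89 (SE 1.68, limma adjusted p = 0.168), on a scale where 3 libraries without a read set its size, and it was 3.52 with a pseudocount of 8. Krt2 passed the filter on low values mainly through the STAT3cKO libraries.

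The other suprabasal members showed smaller differences or few reads. Krt78 (chromosome 15, 101946001 to 101954287) spanned 7.29 to 8.32 in WT and 7.70 to 9.38 in STAT3cKO, with much overlap. Its change was 0.72 with a 95% interval of −0.56 to 1.99 (SE 0.61, limma adjusted p = 0.685), and −0.24 centred on Krt5 and Krt14. Krt77 (chromosome 15, 101858731 to 101869705), the gene next to Krt1, was at 2.31, 2.69, 6.48, 5.80 and 5.58 across WT 1 to 5. In STAT3cKO 1, 3 and 4 it was at 6.25, 6.13 and 6.61, while STAT3cKO 2 and STAT3cKO 5 had no read. Its change was −0.76 with a wide 95% interval of −4.76 to 3.23 (SE 1.90, limma adjusted p = 0.904), and 0.19 with quantile normalization. Krt80 (chromosome 15, 101347444 to 101370162) had an estimated 36 reads in WT 5, at a value of 5.80, and no read in the other 9 libraries.

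In WT the order of mean levels was Krt10, Krt5, Krt14, Krt1, Krt78, Krt77, Krt2 and Krt80. In STAT3cKO the order was the same but for Krt2, at 7.26 ± 1.29 above Krt77 at 3.81 ± 3.45, whose ranges overlapped. Krt5 averaged 12.85 ± 0.73 in WT against 12.03 ± 0.97 for Krt14, and it was above Krt14 in 5 of 5 WT libraries, by 0.82 ± 0.43 within a library. In STAT3cKO they averaged 13.46 ± 0.75 and 13.34 ± 0.71 and did not differ beyond their spread, with Krt5 0.13 ± 0.38 above Krt14 within a library. The mean of Krt1 in WT, 9.30 ± 1.19, lay below that of Krt14, though Krt1 reached 11.13 and Krt14 went down to 10.82. In STAT3cKO the mean of Krt1, 12.74 ± 1.39, lay within 1 SD of that of Krt14. Its libraries there ran from 10.94 to 14.50, a wider range than the 12.61 to 14.165 of Krt14. Krt77 and Krt2 did not differ beyond their spread in WT, nor did Krt78 and Krt2 in STAT3cKO. Of the summed linear values of the 8 members, Krt1 held 2.39% ± 1.45 in WT and 10.50% ± 7.15 in STAT3cKO, from 0.833% to 3.94% and from 4.32% to 22.3%. The share of Krt10 was 56.4% ± 19.5 in WT and 59.2% ± 9.62 in STAT3cKO, the lowest being 21.5% in WT 4. The 8 members together made up 0.166% to 0.533% of the linear sum of a library in WT and 0.434% to 1.09% in STAT3cKO, ranges that overlapped.

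The suprabasal pair was set against the basal pair within each library, which removes any scaling common to a library. Such scores over members are descriptions and carry no p. The mean of Krt1 and Krt10 minus the mean of Krt5 and Krt14 was −0.38, 0.23, −0.72, −3.14 and 0.02 across WT 1 to 5 and 0.28, 0.33, −0.20, 1.67 and 1.44 across STAT3cKO 1 to 5. In STAT3cKO 4 libraries lay above all WT libraries, and STAT3cKO 3 lay within the WT range. The group means were −0.80 ± 1.36 and 0.70 ± 0.81 (SD, n = 5 each), a difference of 1.499 (SE 0.71). Without WT 4, the WT library with the highest level of hair matrix and shaft markers, the difference was 0.91. Taken from summed linear values the difference was 0.75, and 0.17 without WT 4. With all 6 suprabasal members it was 0.55, and it was 0.28 without WT 4 and 0.20 without STAT3cKO 4. STAT3cKO 3, with a like level of those markers, was the lowest of its group. The part of the hair markers in the difference was not tested.

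The ratio was then split into its type II and type I keratins. Krt1 minus Krt5, the type II step, averaged −3.55 ± 1.52 in WT and −0.72 ± 1.30 in STAT3cKO, a difference of 2.83 (SE 0.89). Krt10 minus Krt14, the type I step, averaged 1.96 ± 1.37 in WT and 2.13 ± 0.66 in STAT3cKO, a difference of 0.17 (SE 0.68). In the type I step 4 WT libraries were between 2.16 and 2.77 and WT 4 was at −0.46, while STAT3cKO ran from 1.56 to 3.22. Without WT 4 the type I difference turned to −0.43, and without STAT3cKO 4 to −0.099, so it has no settled direction. The type II difference was 2.26 to 3.18 with 1 library left out. Whether the 2 steps differ was not tested. With every library centred on its own Krt5 and Krt14, an alternative chosen after the data were seen, Krt1 was higher by 2.48 (SE 0.65, limma adjusted p = 0.0383) and Krt10 by 0.52 (SE 0.59, limma adjusted p = 0.609). That centring moved the median of all tested genes to −1.12, and 7 genes were then called higher and 112 lower. The change of a member is then its difference from the basal pair, a score over members, so these p-values are descriptions only.

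Within the filament pairs, the level of the type II keratin relative to its type I partner was higher in STAT3cKO for the suprabasal pair and lower for the basal pair. Krt1 minus Krt10 was −5.10, −4.06, −5.57, −4.69 and −4.04 across WT 1 to 5 and −2.31, −3.96, −3.32, −2.81 and −1.22 across STAT3cKO 1 to 5. The groups did not overlap, though WT 5 and STAT3cKO 2 were close. Krt10 thus had 25.8 times the level of Krt1 in WT and 6.61 times in STAT3cKO by the mean log2 differences of −4.69 ± 0.66 and −2.73 ± 1.04. The difference between groups was 1.97 (SE 0.55), and it was 1.59 to 2.28 with 1 library left out. Krt5 minus Krt14 was 0.75, 1.02, 1.39, 0.68 and 0.24 across WT 1 to 5 and 0.24, −0.05, 0.58, 0.29 and −0.42 across STAT3cKO 1 to 5, a difference of −0.69 (SE 0.26) with overlapping groups.

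**Figure D2:**
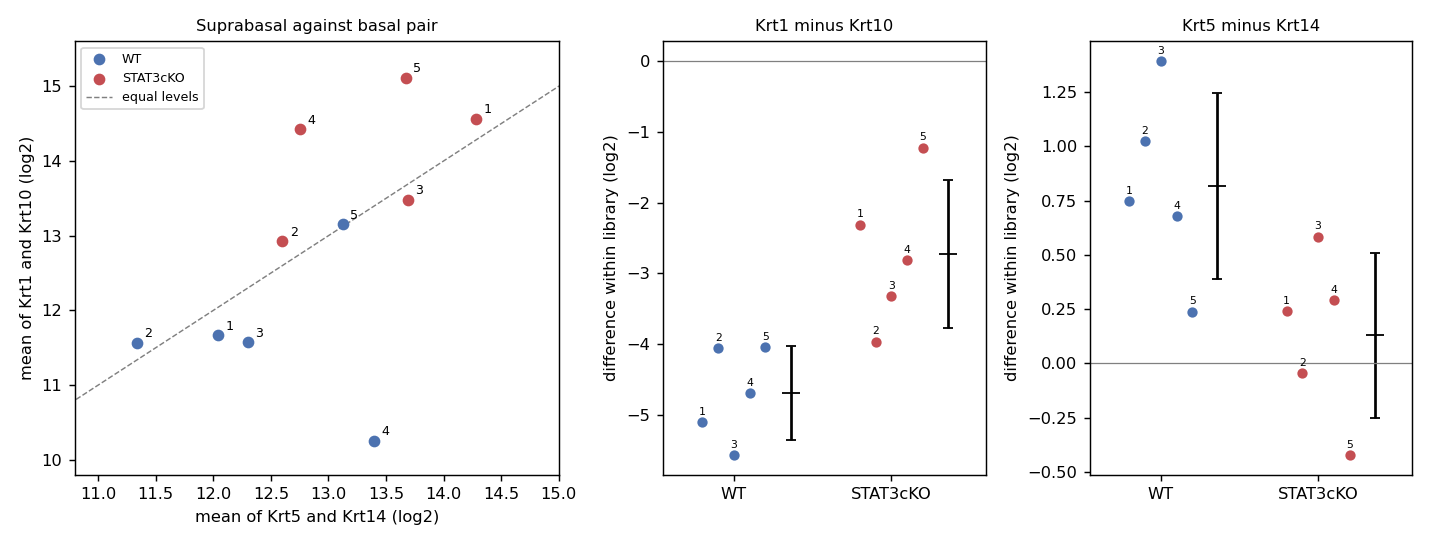
Left, mean log2 level of Krt1 and Krt10 against that of Krt5 and Krt14 in each library (points numbered by replicate), with the line of equal levels. Middle and right, Krt1 minus Krt10 and Krt5 minus Krt14 within each library with group mean and SD (n = 5). WT 4 lies far below the line at −3.14, and Krt1 minus Krt10 runs from −5.57 to −4.04 in WT and −3.96 to −1.22 in STAT3cKO.

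The call of Krt1 turned on the settings of the fit. It was made in 11 of 26 alternatives, the centring on Krt5 and Krt14 among them, and the change of Krt1 was positive in 26 of 26, from 2.48 to 4.43. In the 10 fits that each left out 1 library the adjusted p ran from 0.0141 without STAT3cKO 2 to 0.167 without WT 1, and Krt1 passed in 2 of them, the other being without WT 5 (adjusted p = 0.0147). Among the 4 deeper libraries alone (WT 1, WT 2, STAT3cKO 4 and STAT3cKO 5) Krt1 changed by 4.43 (SE 0.48, limma adjusted p = 0.00178), while the value among the 6 shallower ones was 2.78 (SE 0.99, limma adjusted p = 0.797). Krt10 passed in 4 of 26, from 0.52 to 2.04, and in the deeper libraries it stood at 1.87 (limma adjusted p = 0.0200), against 1.21 (limma adjusted p = 0.816) among the shallower. Pairs of the 4 deeper libraries shared 8126 to 9000 equal deposited values, and all other pairs at most 6138. Each of these counts includes 5996 entries that were 0 in every library. Krt80 without a read was exactly 0 in the deeper libraries and 0.012 to 0.058 in the shallower ones. Depth can thus not be told apart from another difference in how the values were made. With the mean of the adipocyte markers as a covariate, which did not overlap between the groups (11.3 to 13.4 in WT, 8.96 to 10.75 in STAT3cKO), Krt1 had a change of 3.39 (SE 1.67, limma adjusted p = 0.742) and Krt10 one of 2.04 (SE 0.89, limma adjusted p = 0.678). In that fit Krt5 was at −1.58 (limma adjusted p = 0.348) and Krt14 at −1.15 (limma adjusted p = 0.679). Without overlap, that fit can hardly separate the group from these markers. With the hair matrix and shaft markers as a covariate, an alternative chosen after the data were seen, Krt1 stayed at 3.46 (limma adjusted p = 0.0824) and Krt10 at 1.56 (limma adjusted p = 0.0847).

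**Figure D3:**
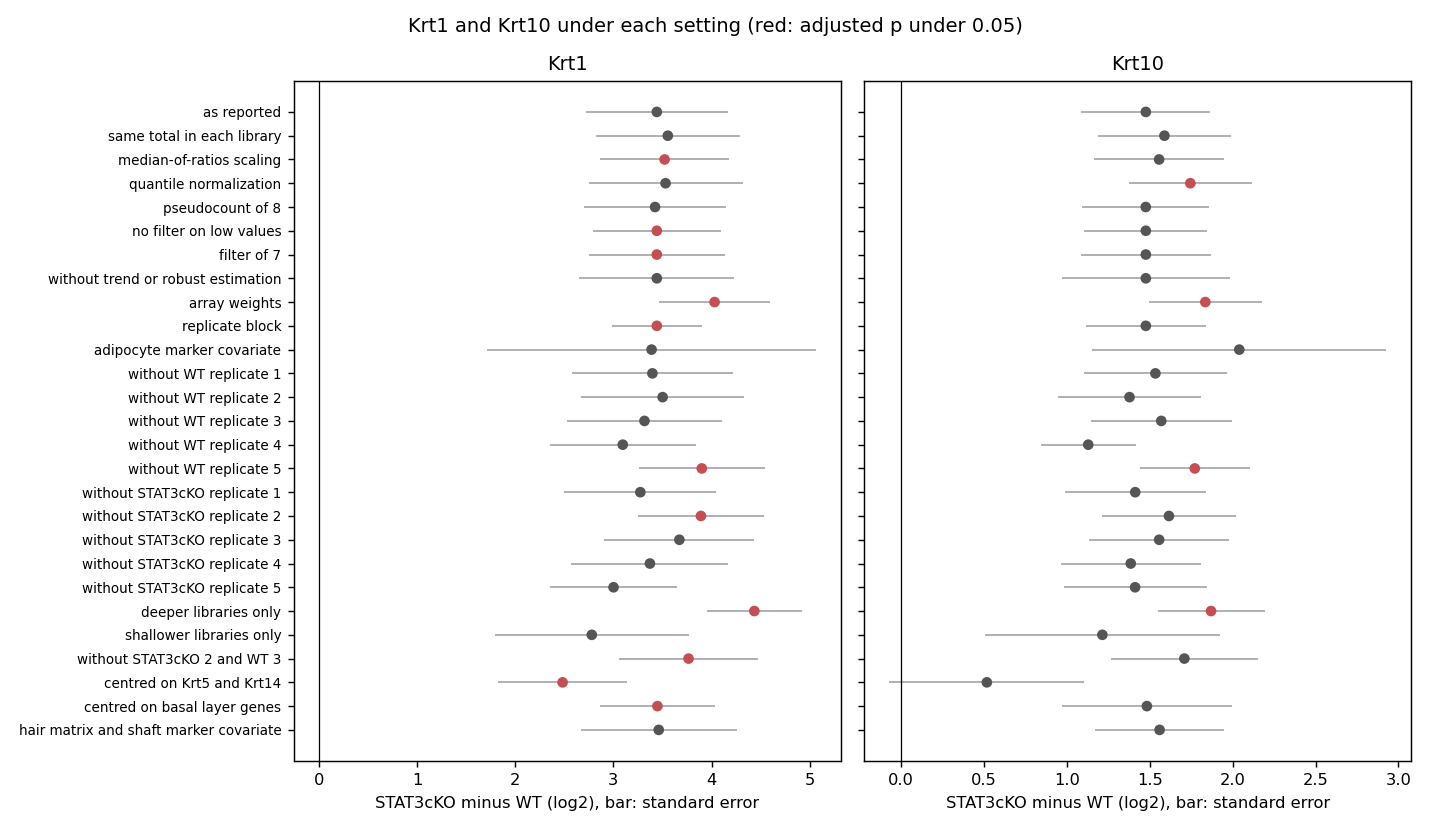
Change of Krt1 and Krt10 (STAT3cKO minus WT, log2, bars are standard errors) under the reported fit and the 26 alternatives, with an adjusted p under 0.05 in red. Krt1 ranges from 2.48 to 4.43 and Krt10 from 0.52 to 2.04, each above 0 in every setting.

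Outside the members 19 keratins were tested, of which 1 rose, 0 fell and 18 did not pass, with a positive change for 16 and a median of 2.05. The riser was Krt79 (chromosome 15, 101929332 to 101940324), a keratin of the upper hair follicle and its opening, encoded just before Krt78. The other 2 tested keratins of the outer root sheath and upper follicle did not pass, and the median of these 3 was 0.17. It lay between 10.4 and 11.9 in WT and between 13.0 and 14.6 in STAT3cKO, without overlap, and it rose by 2.67 (SE 0.35, limma adjusted p = 0.000460). It passed in all 10 fits that left out 1 library, but not centred on Krt5 and Krt14 (1.71, limma adjusted p = 0.12), with the adipocyte covariate (2.03, adjusted p = 0.480) or without trend and robust estimation (adjusted p = 0.0505). Of 3 tested stress keratins, which injured or activated epidermis makes, 0 passed. Krt6a had a change of 4.04 (SE 2.15, limma adjusted p = 0.545) and Krt16 one of 3.36 (SE 2.09, limma adjusted p = 0.571). Of 2 tested inner root sheath keratins and 7 tested hair shaft keratins 0 passed, with medians of 2.02 and 2.37. Krt71 of the inner root sheath was at 2.05 (SE 4.04, limma adjusted p = 0.873) and Krt25 at 2.00 (SE 4.15, limma adjusted p = 0.882). With the adipocyte covariate, which can hardly be separated from group, Krt25 was called lower (−19.36, limma adjusted p = 0.0237). Krt32 of the hair cuticle was at 4.45 (limma adjusted p = 0.453) and Krt84 at −1.84 (limma adjusted p = 0.796). Krt71 and Krt25 had no read in WT 1, WT 2 and STAT3cKO 2, and were at 0.77 and 0 in STAT3cKO 4. They stood at 15.87 and 15.64 in WT 4, the WT library highest in hair markers, at 8.825 and 7.43 in WT 3 and at 4.89 and 7.03 in WT 5. In STAT3cKO 1 they were at 12.80 and 13.15, in STAT3cKO 3 at 14.66 and 15.05 and in STAT3cKO 5 at 11.52 and 11.82. The part of hair cells in these values was not tested. Of 4 simple and other epithelial keratins 0 passed, with Krt18 at −2.98 (limma adjusted p = 0.633) and Krt23 at 0.19 (limma adjusted p = 0.899). Among the 13 keratins listed there, Krt9, a keratin of footpad skin, and Krt13 had no read in any library analysed here.

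**Figure D4:**
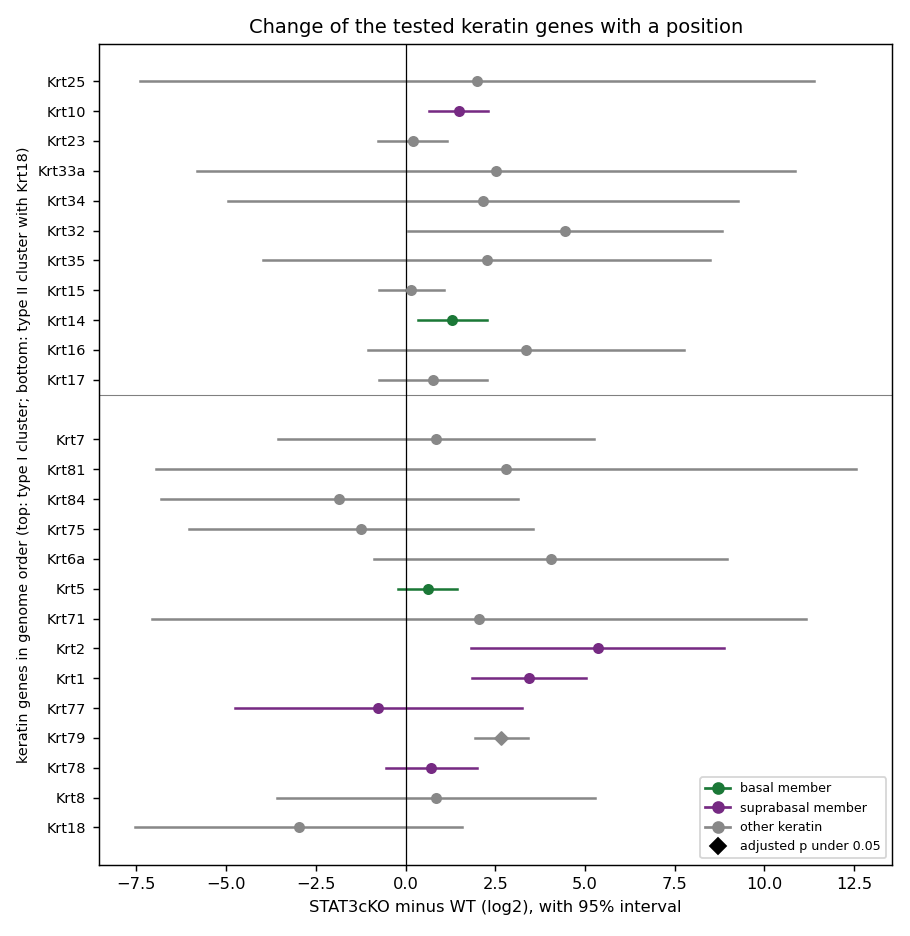
Change of 25 tested keratins with a position in the annotation (STAT3cKO minus WT, log2, with 95% intervals), in genome order within the type I and type II clusters; diamonds mark an adjusted p under 0.05. Krt79 alone passed, at 2.67. Among the members the intervals of Krt14, Krt10, Krt1 and Krt2 lie above 0, that of Krt2 resting on a gene that entered the test mainly through STAT3cKO, and those of Krt5, Krt77 and Krt78 include 0.

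Genes that mark the same layers but are not keratins were set beside the members. Of 14 tested basal layer genes other than keratins 0 passed, 9 were positive and the median was 0.21, against 0.62 and 1.30 for Krt5 and Krt14. Cd151, a tetraspanin that partners with laminin-binding integrins, had a change of −0.94 (SE 0.30, limma adjusted p = 0.175), and the integrin chain Itgb1 one of −0.87 (SE 0.31, limma adjusted p = 0.262). Of 13 tested spinous layer genes 0 passed, 12 were positive and the median was 0.78. The desmosomal cadherins Dsg1a and Dsc1 had changes of 1.07 (SE 0.28, limma adjusted p = 0.0746) and 1.67 (SE 0.47, limma adjusted p = 0.108). Of 15 tested granular layer and cornified envelope genes 1 rose and 14 did not pass, 15 were positive and the median was 1.28. The riser was Hrnr, which encodes hornerin, by 3.40 (SE 0.37, limma adjusted p = 0.000122), a call lost in 1 of 26 alternatives, the adipocyte covariate (limma adjusted p = 0.129). Krt1, at 3.44, had a change close to that of Hrnr with a larger standard error (0.72 against 0.37).

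Of 9 proteins that anchor keratin filaments to desmosomes and hemidesmosomes 1 rose, 8 did not pass and 8 were positive, with a median of 0.88. Ppl, periplakin, which binds keratin filaments at the cornified envelope, rose by 1.39 (SE 0.29, limma adjusted p = 0.0273). Of the 10 fits that left out 1 library Ppl passed in 4, and it missed the threshold without WT 1, WT 2, WT 5, STAT3cKO 1, STAT3cKO 3 or STAT3cKO 4 (limma adjusted p of 0.0530 to 0.0936), as well as with every library centred on Krt5 and Krt14 (0.43, adjusted p = 0.676). It passed in 14 of 26 alternatives. The others it missed were the adipocyte covariate (0.61, limma adjusted p = 0.824), centring on the other basal layer genes (adjusted p = 0.374), the shallower libraries (1.11, adjusted p = 0.588), no trend or robust estimation (adjusted p = 0.25) and a fit with the replicate number as a term. Of 22 transcription factors of keratinocyte differentiation 0 passed, 19 were positive and the median was 1.001. Rora, a nuclear receptor, had a change of 1.27 (SE 0.31, limma adjusted p = 0.0588), and Klf4, a Krüppel-like factor needed for the skin barrier, one of 0.96 (SE 0.26, limma adjusted p = 0.0910). Centred on Krt5 and Krt14, every change in these 5 lists is lower by 0.96, which puts the medians of the basal, spinous and anchor lists below 0. As deposited, all 5 medians were positive while the adipocyte markers had a median of −2.31, and the part of the latter in these values was not tested.

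Genes with a course over the 10 libraries most like that of each pair were sought by the mean absolute difference of log2 values, after each gene was centred on its own mean. The search covered the tested genes without the members and without predicted genes (Gm and Rik symbols). For the mean of Krt5 and Krt14 the nearest were Kctd11 (0.245), Bnipl (0.250), Acpp (0.261), Casz1 (0.262) and Pkp1 (0.288), against a median of 1.37 over all genes searched. Pkp1 encodes plakophilin, a desmosomal plaque protein. For the mean of Krt1 and Krt10 the nearest were Klk9 (0.386), Calm4 (0.443), Lce1h (0.472), Cers4 (0.475) and Krt79 (0.481), against a median of 1.79. Calm4 is a calmodulin-like protein of differentiating keratinocytes, Lce1h a late cornified envelope protein and Cers4 a ceramide synthase. Krt1 and Krt10 each lay 0.517 from the mean of the pair, equal because that mean is midway between them. Since the 5 genes were picked as the nearest, their smaller distances are no result about the keratins.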

How the data were processed

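Total RNA of whole skin was extracted with Trizol and sequenced with a Lexogen QuantSeq kit, per the labels' protocols. The authors deposited 1 table per library on a log2 scale, made with Bowtie2 and bedtools on mm10, per the submitters' processing notes. Tool versions, annotation, strand use and scaling were not given in the sources used here. Per the values, the deposited log2 values behave as log2 of scaled reads plus 1: undone, they summed to 9690000 to 11400000 per library, and 75.4 to 100% of low values lay within 0.15 of a whole read, from which depth was estimated and values below 0.5 of a read counted as none. Counting error alone is covered by such depths, since no molecular identifiers are named.

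Genes with a value of at least 5 in at least 5 libraries (11536) were fitted with limma 3.58.1 in R 4.3.3, with group as the only term and empirical Bayes moderation with trend and robust estimation. All p-values were adjusted over all tested genes. Changes are STAT3cKO minus WT, and the pseudocount understates changes of low genes. The members and lists were chosen with earlier results of these data known. Named genes were the members, called genes of each list (up to 4, else the 2 with the lowest p), and the 5 genes nearest to each keratin pair. Members and predicted genes were left out of that last search. Alternatives changed scaling, pseudocount, filter, moderation, weights, covariates and libraries. Chosen after the data were seen were centring on Krt5 and Krt14, centring on the other basal layer genes, the hair marker covariate, and leaving out libraries for the differences between members other than the pair mean and the filament pairs. Positions come from GENCODE M21 and start regions from RefSeq. Figures were drawn with matplotlib 3.10.9.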

Additional observations from a re-analysis of the deposited data

Results flagged for a closer look

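Within the groups of 5, 38 sets of values were checked for a library far from the rest, and 4 were found, where chance gives about 1 in 20. Krt80 was at 5.80 in WT 5, against 0 to 0.051 in the other WT libraries. WT 4 stood apart in 3 measures that share the same keratins: the suprabasal minus basal difference was −3.14 (the others −0.72 to 0.23), the same ratio of summed linear values was −1.78 on the log2 scale (the others 0.93 to 1.25), and Krt10 minus Krt14 was −0.46 (the others 2.16 to 2.77).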

How the results depend on the processing

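Without WT 4 the suprabasal minus basal difference went from 1.499 to 0.91. It kept its direction in all 19 alternatives. Among them, same-total and median-of-ratios scaling (1.4991 and 1.4989) could not change it, since scaling common to a library cancels. It was 0.55 with all suprabasal members, 0.75 from summed linear values and 0.91 to 1.76 without 1 library. The summed linear value fell to 0.17 without WT 4, and the value over all suprabasal members to 0.20 without STAT3cKO 4 and 0.28 without WT 4. Krt10 minus Krt14 ran from −0.43 (without WT 4) to 0.38, and was −0.099 without STAT3cKO 4. Krt1 minus Krt10 kept its direction in 17 of 17 (1.57 to 2.57) and Krt5 minus Krt14 in 17 of 17 (−0.95 to −0.50). These counts also hold the scalings that cancel within a library, and the fits without 1 library share most of their libraries. No member was called lower in any of the 26 alternatives. Exactly 1 member (Krt1, but Krt10 with quantile normalization) was called higher with median-of-ratios scaling, quantile normalization, no filter, a filter of 7, without STAT3cKO 2 and WT 3, centred on Krt5 and Krt14 or centred on the other basal layer genes, and 2 were with array weights or in the deeper libraries, and 0 to 2 without 1 library; the cause was not tested. Genes called higher and lower were 61 and 53 as reported, 95 and 81 with quantile normalization, 13 and 31 without trend or robust estimation, 202 and 173 with array weights, 2 and 1 with the adipocyte covariate, 82 and 92 in the deeper and 12 and 4 in the shallower libraries, 7 and 112 centred on Krt5 and Krt14, 24 and 27 centred on the other basal layer genes, and 29 to 96 and 24 to 111 without 1 library. Same-total scaling gave 76 and 39 (66.1% of calls higher, against 53.5% as reported) and median-of-ratios scaling 72 and 41 (63.7%), and moved the median of all genes from −0.16 to −0.05 and −0.08; quantile normalization moved it to −0.05.

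The replicate numbers did not pair the libraries: the correlation of deviations across genes between same-numbered libraries was −0.155 to 0.0159, and 0 of 10 libraries matched best with their own number. With the replicate block 34 genes were called higher and 32 lower, and 1 member was called higher, Krt1 (adjusted p = 0.00134), while Ppl did not pass (adjusted p = 0.0821).

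Directions reversed as follows, the cause not being tested. The mean of the adipocyte markers did not overlap between the groups, so a fit with it as a covariate can hardly separate it from group. With the adipocyte covariate the changes were −1.58 for Krt5, −1.15 for Krt14, −3.79 for Krt6a, −1.38 for Krt16, −17.97 for Krt71, −19.36 for Krt25 (the 1 gene then called lower, adjusted p = 0.0237), −2.59 for Krt32, −1.64 for Krt23 and −0.37 for Dsc1. Centred on Krt5 and Krt14 they were −0.34 for Krt5, a sign that this centring fixes for the less changed of the 2 genes, −0.24 for Krt78 and −0.77 for Krt23. In the shallower libraries Krt71 was at −0.69 and Krt25 at −0.61, and Krt25 was at −0.082 with the hair covariate. Krt77 was at 0.19 with quantile normalization, 0.45 with array weights, 0.81 in the deeper libraries, 0.65 without STAT3cKO 2 and WT 3, 0.17 without STAT3cKO 2 and 0.19 without STAT3cKO 5. Krt23 was at −0.078 without WT 3 and −0.037 without STAT3cKO 3. Leaving out 1 library gave −1.46 to 0.19 for Krt77 and −0.078 to 0.48 for Krt23. Low reads limit Krt2, Krt77 and Krt80.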
